A study of Mus musculus with 384 samples.

Results

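Transcripts of pigment cells and of myeloid cells were followed through wells that were meant to hold single T cells from a mouse melanoma. The set holds 9 of the 23420 genes in the expression table. Tyr, Dct, Tyrp1, Pmel and Mlana belong to the pigment programme of melanocytes and melanoma cells, and Lyz2, Apoe, Fcer1g and Cd74 are abundant in macrophages, monocytes or antigen-presenting cells. They were chosen by the share of wells in which each was detected, near all wells for Tyr and few for the others, so the shares of wells and the levels given here describe that choice and carry no test.

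The tumours were B16F10, a transplantable melanoma line of C57BL/6 mice, and the sample labels give the strain as C57BL/6 for all wells. T cells that had entered the tumour were placed in plates and sequenced by Smart-seq2, which reads whole transcripts of each cell after PCR and, as run here, carries no molecular identifiers. There were 4 plates, 1 each for CD8 cells of a wild-type source, CD8 cells of a source labelled Il27ra knockout, CD4 cells of the wild-type source and CD4 cells of the source labelled knockout. Each plate held 94 single-cell wells, 1 population well with many cells and 1 well without a cell. Il27ra encodes the specific chain of the receptor for the cytokine IL-27. Its RNA did not follow the labels, since 51.4% of CD8 cells were positive on the wild-type plate and 57.1% on the plate labelled knockout, and 36.5% and 47.4% of CD4 cells in the same order. The labels name no deleted exon, so RNA from outside a deleted part checks nothing. With 1 plate for each genotype and cell type, genotype, animal and plate cannot be told apart.

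Melanocytes make melanin in melanosomes. Tyrosinase, the product of Tyr, starts the synthesis, the products of Tyrp1 and Dct carry out later steps, Pmel builds the fibrils on which pigment settles and Mlana supports melanosome formation. These genes share the transcription factor MITF, which binds the M-box, a stretch with the core letters CATGTG. On the myeloid side, Lyz2 encodes lysozyme of macrophages and neutrophils, Apoe a lipid carrier of macrophages, Fcer1g the signalling chain of Fc receptors and Cd74 the invariant chain that guides MHC class II molecules. T cells are not a usual source of the pigment transcripts, although activated or innate-like T cells can express Fcer1g and some T cells express Cd74.

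The start regions of 3 pigment genes are printed because they hold an element that pigment genes have in common. RefSeq promoter entries (GRCm38.p6) were found for 6 of 8 genes looked up, and the 250 bases upstream of the RefSeq start are given 5′ to 3′ on the gene's strand with CATGTG or its reverse complement CACATG in capitals. Tyr lies on the minus strand at chr7:87493513-87493762, Tyrp1 on the plus strand at chr4:80833963-80834212 and Dct on the minus strand at chr14:118052247-118052496.
Tyr: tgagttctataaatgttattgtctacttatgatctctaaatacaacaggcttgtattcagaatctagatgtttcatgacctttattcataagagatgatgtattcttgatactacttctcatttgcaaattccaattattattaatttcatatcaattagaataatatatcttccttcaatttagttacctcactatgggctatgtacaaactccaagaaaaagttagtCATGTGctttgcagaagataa
Tyrp1: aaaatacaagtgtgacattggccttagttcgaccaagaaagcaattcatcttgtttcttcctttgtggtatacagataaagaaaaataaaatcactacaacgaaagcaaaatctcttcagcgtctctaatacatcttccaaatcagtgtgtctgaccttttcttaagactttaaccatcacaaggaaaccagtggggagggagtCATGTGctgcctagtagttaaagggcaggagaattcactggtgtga
Dct: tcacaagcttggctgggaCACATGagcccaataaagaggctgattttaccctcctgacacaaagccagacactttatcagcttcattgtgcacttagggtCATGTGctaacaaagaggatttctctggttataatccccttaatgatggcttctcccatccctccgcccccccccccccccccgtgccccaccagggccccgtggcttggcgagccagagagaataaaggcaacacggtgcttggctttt
The first base of the motif stood at -21 in Tyr, -46 in Tyrp1 and -232 and -150 in Dct, counted from the RefSeq start. The GENCODE span of Tyrp1 begins further upstream, so the last 90 of its printed bases lie inside that span and the motif starts at its base 45. The printed bases of Tyr and Dct lie outside their GENCODE spans. CATGTG on either strand was found in 12.3% of 32851 promoters of this length, so its presence alone is common. The longest run around it that Tyr and Tyrp1 share, AGTCATGTGCT, was found on either strand in 7 of 32851 promoters (0.0213%), these 2 included by construction. A match describes letters and not binding. By GENCODE M21 (GRCm38), Tyr spans chr7:87424771-87493512, Tyrp1 chr4:80834123-80851719, Dct chr14:118012790-118052244, Pmel chr10:128704195-128720238 and Mlana chr19:29697824-29708634. Among the myeloid genes, Lyz2 spans chr10:117277331-117282321, Apoe chr7:19696109-19699188 and Fcer1g chr1:171229572-171234365.

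A second sequence is printed because it sets Tyr apart from the other pigment genes at the level of the transcript. Among all 25-base windows of the 6042-base Tyr transcript, the one shared with the most other genes lies in the 3′ untranslated region in exon 5 of 5, at chr7:87428035-87428059 on the minus strand (GRCm38).
Tyr window, transcript strand: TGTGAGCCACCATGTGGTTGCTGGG
Tyr window, reverse complement: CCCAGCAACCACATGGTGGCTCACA
The capitals mark the whole window, and its letters resemble the B2 family of mouse repeats. The window, read on either strand, occurs in transcripts of 0.925% of 21515 genes, Tyr included. Of 6018 windows of Tyr, 2.58% were shared with another gene, and 72 windows with 10 or more genes. Dct, Tyrp1, Mlana, Apoe and Fcer1g shared no window with another gene. Pmel shared 81 of 2106 windows with a single other gene at most, and Cd74 shared 28 windows, 26 of them with 10 or more genes. Lyz2 shared 523 of 1292 windows (40.5%) with 1 other gene at most, and its near copy Lyz1 makes the division of reads between these 2 uncertain.

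A gene was called detected at 1 FPKM (sequenced fragments scaled to transcript length and library size) or more, and cells with 1000 or more detected genes were kept. This left 72 of 94 and 77 of 94 cells on the wild-type and labelled-knockout CD8 plates and 74 of 94 and 78 of 94 on the CD4 plates in the same order, 80.1% of all single-cell wells. Their medians were 2530.5, 2243, 2047 and 2091 detected genes. Cd8a was detected in 61 of 72 and 63 of 77 CD8 cells and in 2 of 74 and 0 of 78 CD4 cells. Cd4 was detected in 0 of 72 and 1 of 77 CD8 cells and in 66 of 74 and 71 of 78 CD4 cells, so the coreceptors followed the titles. Not every kept well looked like a T cell, because 24 of them held fewer than 6 of 13 T cell list genes (Cd3d, Cd3e, Lck and others), against a median of 10 over all kept wells. These 24 wells had a median of 1584.5 detected genes, against 2176 over all kept wells. In the wells without a cell, 6 to 26 genes were detected, and all 9 transcripts were at 0 in all 4.

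Tyr was present almost everywhere. It was detected in all but 3 of the kept cells (99%, exact Clopper-Pearson 95% interval 97.1% to 99.8%), by plate in 72 of 72, 75 of 77, 74 of 74 and 77 of 78. Only 22 of 15176 genes detected in any kept cell (0.145%) reached 99% of the cells, and 1.23% reached 90%. The 3 kept cells without Tyr were wells S212 and S246 of the CD8 plate labelled knockout and S135 of the CD4 plate labelled knockout, with 1770, 1481 and 1080 detected genes.

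The level of Tyr was low in most cells. On the wild-type CD8 plate it ran from 2.26 through a median of 8.72 to 371.5 FPKM, and on the CD8 plate labelled knockout from 0 through 7.73 to 55.9 FPKM. On the wild-type CD4 plate it ran from 2.57 through 7.13 to 33.1 FPKM, and on the CD4 plate labelled knockout from 0 through 8.36 to 35.1 FPKM. The central parts of the plates overlapped, the wild-type CD8 plate alone had values above 55.9 FPKM, and 73.1% of all kept cells lay between 5 and 20 FPKM. The mean log2(FPKM + 1) was 3.46 ± 1.21 (SD over 72 cells), 3.06 ± 0.90 (77 cells), 3.10 ± 0.71 (74 cells) and 3.22 ± 0.81 (78 cells) in the order above. These values stood for about 25.2 reads per kept cell (quartiles 17.1 and 37.5), by an estimate from the steps between low values, so Tyr calls did not hang on single reads.

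Among genes detected in at least 90% of cells, Tyr had the third smallest spread, with an SD of 0.93 log2 units across cells. Only 2310010M20Rik (0.84) and Rn45s, a ribosomal RNA precursor (0.92), varied less. Rmi2 (0.93) and Cd300a (0.99) came next, at medians of 5.93 and 6.17 FPKM. A small spread was thus shared by other broadly detected genes at low level. The share of wells with Tyr was lower in wells with few genes, whereas its level was not higher in wells with many. It was detected in 18.4% of 38 wells under 250 genes, in 46.7% of 15 wells with 250 to 500 genes and in 95.5% of 22 wells with 500 to 1000 genes. From 2000 genes upward it was found in 100% of cells. Medians lay at 10.4 FPKM for 1000 to 1500 genes and at 7.72 FPKM for 4000 genes or more.

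Genes that carry the 25-base window were detected more broadly than other genes as a group. Among genes detected in at least 90% of cells with a median under 20 FPKM, where Tyr lies, 18 of 45 carried it, and among those with a median of 20 FPKM or more, 5.34% did, beside 0.925% of all genes with a transcript. Carriers had a median detection of 31.6% of cells and other genes 1.33%. In the length band of 3 to 9 kb that holds Tyr, carriers were detected in a median of 32.6% of cells and other genes in 4.98%. Tyr ranked first in detection among the carriers of this band. It was chosen for its near-universal detection and the window was taken from its own transcript, so this rank describes the choice. Tyr is also counted among the carriers above.

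Some other genes were, like Tyr, detected in nearly all cells at a low level, and 3 are named here after their values were seen. Cxcr2, a chemokine receptor of neutrophils, carries the window and was detected in 95.7% of cells at a median of 6.73 FPKM with an SD of 1.00. Rmi2, a member of a DNA repair complex, carries it and was detected in 97.3% of cells at a median of 5.93 FPKM. Most such genes lack the window, with 18 carriers among the 45 genes above. A330032B11Rik lacks it and was detected in 97.3% of cells at a median of 9.64 FPKM. Whether reads from repeats elsewhere were assigned to Tyr was not tested, because the deposited values do not keep read positions.

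**Figure D1:**
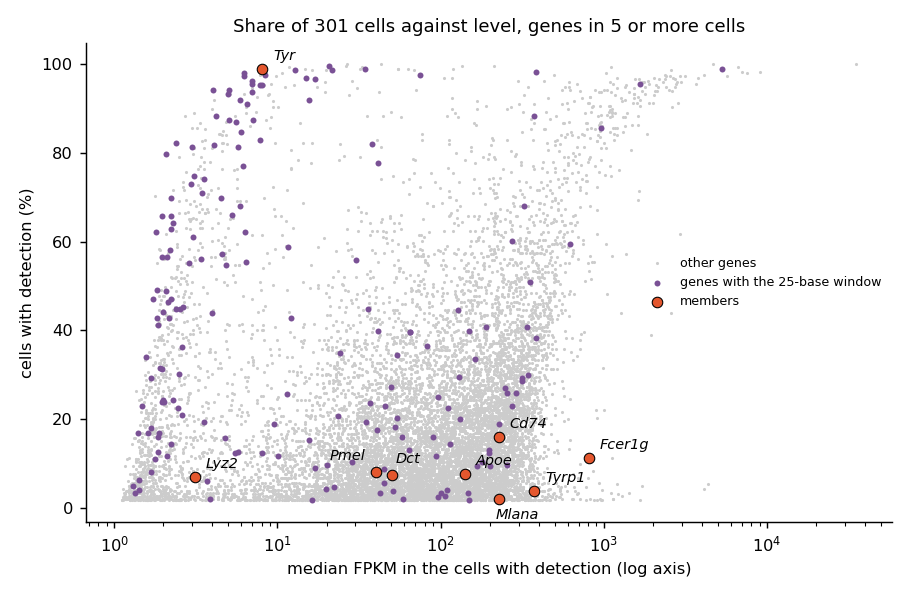
Share of the kept cells with detection (%, vertical axis) against the median FPKM in those cells (horizontal axis, log scale) for genes detected in 5 or more cells, with the 9 described genes in orange and genes carrying the 25-base window in purple. Tyr stands at 99% of cells near 8 FPKM beside other carriers of the window, whereas the other 8 genes lie at or under 15.9% of cells.

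The other pigment genes were rare. Pmel was detected in 24 kept cells (7.97% of all kept cells, 95% interval 5.18% to 11.6%), Dct in 22 (7.31%, 4.64% to 10.9%), Tyrp1 in 11 (3.65%, 1.84% to 6.44%) and Mlana in 6 (1.99%, 0.735% to 4.29%). The intervals of Pmel and Dct overlapped almost fully, as did those of Tyrp1 and Mlana in part. Of all genes detected in any cell, 54.3% were found in at most 10% of cells, so a low share is the common case in this table.

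Where a pigment transcript was found it was often abundant. Dct, the dopachrome tautomerase, ran from 1.60 through a median of 50.1 to 3360 FPKM in its 22 wells, and Pmel from 1.04 through 40.3 to 6399 FPKM in 24. Tyrp1 ran from 2.70 through 373.9 to 3922 FPKM in 11 wells, and Mlana from 122.4 through 229.3 to 955 FPKM in 6. All 6 Mlana wells, 10 of 11 Tyrp1 wells, 17 of 22 Dct wells and 16 of 24 Pmel wells were at 10 FPKM or more. Around the call limit, Pmel had 4 values between 0 and 1 FPKM with the highest at 0.92, Tyrp1 had 1 at 0.57, and the other 7 genes had none.

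By plate, Dct was found in 11 of 72 cells on the wild-type CD8 plate and 1 of 77 on its labelled-knockout partner, and in 10 of 74 and 0 of 78 cells on the CD4 plates in the same order. In the wild-type CD8 plate the Dct wells ran from 1.78 through 145.2 to 3360 FPKM, and in the wild-type CD4 plate from 1.60 through 27.3 to 716 FPKM. The single Dct cell of the CD8 plate labelled knockout, well S288, had 355.3 FPKM. Tyrp1 was detected in 6, 3, 2 and 0 cells in the same order of plates, Pmel in 10, 6, 5 and 3, and Mlana in 3, 1, 1 and 1. A count of 0 of 78 cells allows a share of up to 3.85%, for counting error only.

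**Figure D2:**
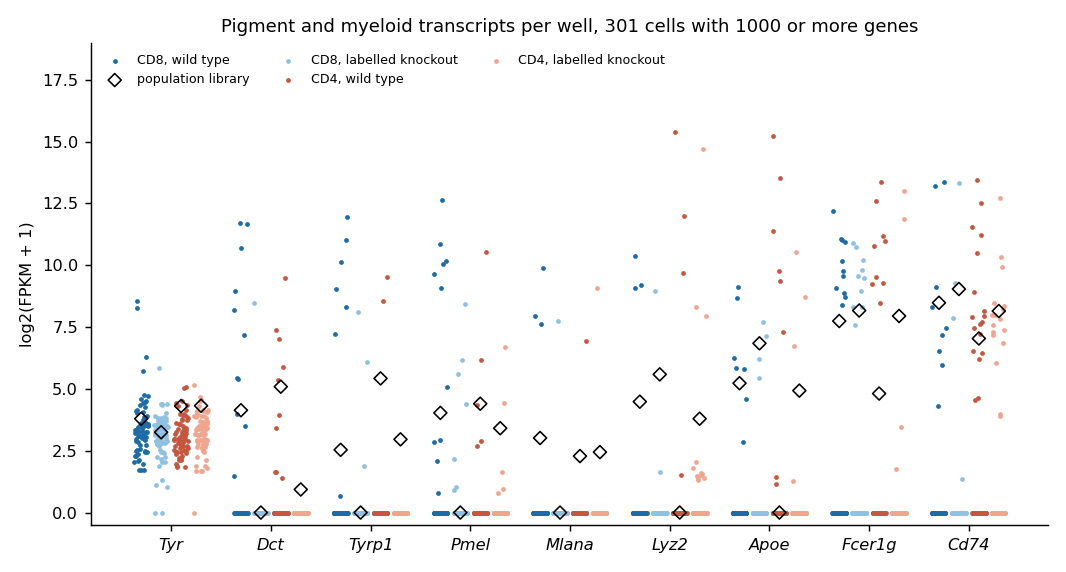
Level of each of the 9 genes as log2(FPKM + 1) (vertical axis) in the kept cells, with 1 point per cell, columns within a gene for the 4 plates and open diamonds for the population library of each plate. Tyr forms a narrow band in all plates, and each other gene is at 0 in most cells with scattered high wells.

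Plates labelled knockout held fewer cells with Dct. The difference, labelled knockout minus wild type, was -14.0 percentage points in CD8 (Newcombe 95% interval -24.1 to -5.32) and -13.5 points in CD4 (-23.1 to -5.89). At detection from 1 FPKM, Dct was the only 1 of the 9 genes past a limit of 10 points in either comparison. That limit was passed downward by 13.4% of all genes in CD8 and 4.20% in CD4, and upward by 2.39% and 3.47%. Among genes detected in 5 to 10% of cells, the range that holds Dct, 3.37% passed downward in CD8 and 0.542% in CD4. Cells of 1 plate are not replicates of a genotype, so the intervals cover counting error only and no p-value was computed. The wild-type CD8 plate also had more detected genes than its partner, and the median of all genes was -1.48 points in CD8 and -0.28 points in CD4. When cells of the plates were matched by their detected genes, the Dct differences were -10.9 points in CD8 (55 cells a plate) and -14.1 points in CD4 (64 a plate). The call did not hold at higher levels in every plate pair. At 10 FPKM or more the differences were -12.6 points in CD8 and -8.11 in CD4, and at 50 FPKM or more -7.03 and -5.41 points, under the limit in both. Among cells with at least 2000 detected genes they were -8.53 points in CD8, under the limit, and -14.6 in CD4. Shares of all genes past the limit were not computed for matched cells, for these cells or at 50 FPKM.

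The other pigment genes differed by less. Pmel differed by -6.10 points in CD8 (-16.8 to 4.15) and -2.91 in CD4 (-11.4 to 4.95). Tyrp1 differed by -4.44 points in CD8 (-13.5 to 3.81) and -2.70 in CD4 (-9.33 to 2.38). Mlana differed by -2.87 points in CD8 (-10.3 to 3.45) and -0.07 in CD4 (-6.08 to 5.67). All of these intervals included 0. Tyr, whose share is near its ceiling, differed by -2.60 points in CD8 (-8.98 to 2.81) and -1.28 in CD4 (-6.91 to 3.76). At 10 FPKM or more, near the median level of Tyr, its difference was -9.29 points in CD8 (-24.2 to 6.203) and 14.1 points in CD4 (-0.87 to 28.1), from 31 of 72, 26 of 77, 19 of 74 and 31 of 78 cells. The CD4 value turned sign and passed the limit, and both intervals included 0. At that level the limit was passed upward by 3.01% of all genes in CD4 and 2.45% in CD8, and downward by 3.75% and 12.1%. On the scale of mean log2(FPKM + 1), Tyr differed by -0.40 in CD8 and 0.11 in CD4, beside -0.07 and -0.02 for the median gene.

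**Figure D3:**
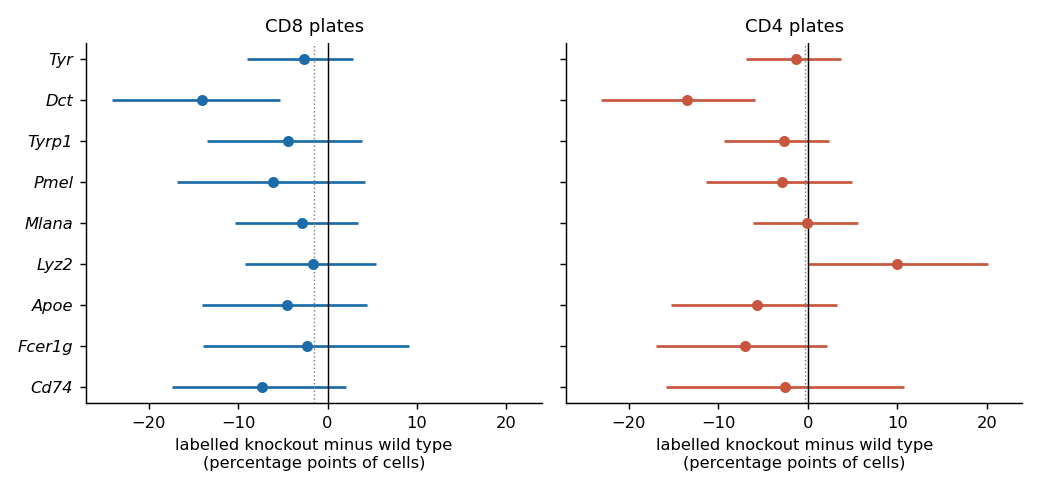
Difference in the share of kept cells with detection, labelled knockout minus wild type, in percentage points (horizontal axis) for the 9 genes in CD8 (left) and CD4 (right); bars are Newcombe 95% intervals over cells and the dotted line is the median of all genes. Dct lies at -14.0 and -13.5 points, and Lyz2 lies on opposite sides of 0 in the 2 cell types.

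Most wells with a pigment gene other than Tyr held a single one. Of 43 kept cells with Dct, Tyrp1, Pmel or Mlana, 32 held 1 of the 4 and 11 held 2 or more, where independent spread within each plate would give 5.64 wells with 2 or more. Dct and Pmel were found together in 9 wells, which is 40.9% of Dct wells and 37.5% of Pmel wells. Tyrp1 shared 6 wells with Dct and 6 with Pmel, in each case 54.5% of its own wells. The 11 wells with several pigment genes comprised 7 of 72 on the wild-type CD8 plate, 2 of 77 on the CD8 plate labelled knockout, 2 of 74 on the wild-type CD4 plate and 0 of 78 on the CD4 plate labelled knockout. Without the wild-type CD8 plate 4 such wells are left.

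The strongest case was well S89 of the wild-type CD8 plate. It held Pmel at 6399 FPKM, Tyrp1 at 3922, Dct at 3265 and Mlana at 247.1, with Tyr at 305.4 and Gpnmb, a melanosome and lysosome glycoprotein, at 1798. The same well held Cd3e at 649 FPKM, Cd8a at 192.1 FPKM and 10 of 13 T cell list genes. Well S57 of the same plate held all 4 pigment genes, at 145.2 FPKM for Dct, 523 for Tyrp1, 801 for Pmel and 955 for Mlana. It also held 13 of 20 further pigment cell genes and 11 of 13 T cell genes, with Cd3e at 772 FPKM and Cd8a at 1167 FPKM. Its Tyr level of 7.35 FPKM was below the median of all kept cells.

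T cell transcripts were found beside the pigment transcripts in most of these wells. Cd3e was detected in 9 of the 11, and the 11 wells held a median of 10 T cell list genes, the same as the wells with none of the 8 rarer transcripts. The exceptions were S25 with 3, S36 with 5 and S289 with 2 of 13. The median number of detected genes was 2452 in the wells with several pigment genes and 2106 in wells with none. Doublets were not called, and the part that 2 cells in a well, captured debris or free RNA may have had was not tested.

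Other genes of the pigment programme followed in some of these wells. Of 20 further pigment cell genes, a median of 2 was detected in the 11 wells and at least 1 in 9 of them, against a median of 0 and at least 1 in 27.4% of wells with none of the 8. Gpnmb was found in the same 9 of 11 wells and in 4 wells with none of the 8 (2.23%). In S9 and S84 it was the only gene of this list, and 7 of the 11 wells held 2 or more. Gpnmb was also found in 3 of the 19 wells with 2 or more of the myeloid genes. Sox10, the lineage factor of melanocytes, was found in 2 of 11 and in 0 with none. Mitf was found in 1 of 11 and in 2 with none (1.12%), and Oca2 in no kept cell. Slc24a5, a melanosomal exchanger, was spread more widely, in 3 of 11 wells and in 11.7% of wells with none. Sparc, a matrix protein of stromal and melanoma cells on the stromal list, was found in 4 of 11 wells and in 2 with none.

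The level of Tyr was tied in part to the other pigment genes. Tyr had a median of 7.99 FPKM in cells with none of the 4, 8.53 in 32 cells with 1 and 10.7 in 11 cells with 2 or more. Of these 11 wells, 3 were at 50 FPKM or more, namely S84 (371.5 FPKM), S89 (305.4) and S288 (55.9), while 7 were at or below the upper quartile of all kept cells. Well S87 held Tyr at 76.3 FPKM with Dct at 1668 FPKM and no other of the 4. Well S22 held Tyr at 51.97 FPKM with none of them. The 5 genes whose level was most like Tyr over the kept cells, by Pearson r of log2(FPKM + 1) among 11350 genes, were A330032B11Rik (r = 0.43), 2310010M20Rik (0.43), Vmn2r-ps129 (0.36), Slc7a14 (0.35) and Fbln5 (0.35). The r of Tyr with Pmel was 0.28, with Dct 0.26, with Tyrp1 0.26 and with Mlana 0.08. Among the genes most like each of these, Tyr ranked 23 for Pmel, 26 for Dct, 31 for Tyrp1 and 2531 for Mlana.

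The remaining pigment genes were most like each other and a few shared partners. Dct was most like Pmel (r = 0.54), Fbln5 (0.49), Tyrp1 (0.49), Gpnmb (0.43) and Sparc (0.42). Pmel was most like Gpnmb (0.62), Fbln5 (0.58), Dct (0.54), Tyrp1 (0.51) and Met (0.49). Tyrp1 was most like Ptgds (0.62), Fbln5 (0.60), Met (0.60), Gpnmb (0.55) and Pmel (0.51). Mlana was most like Fbln5 (0.56), Met (0.56), Syt4 (0.50), Mipep (0.45) and Cables2 (0.44). Fbln5, an elastic fibre protein, and Met, the receptor of hepatocyte growth factor, were each detected in 5 kept cells, so these values rest on few wells. The cells share library preparation and plate, and the r values are descriptions.

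Population wells gave a second view of the same plates. Tyr was at 12.9 FPKM in the wild-type CD8 population, 8.49 in the CD8 population labelled knockout, 18.8 in the wild-type CD4 population and 18.96 in the CD4 population labelled knockout. The CD8 population labelled knockout held Tyr while Dct, Tyrp1, Pmel and Mlana were all at 0. Dct was at 16.6 FPKM in the wild-type CD8 population, 33.1 in the wild-type CD4 population and 0.91 in the CD4 population labelled knockout. Pmel was at 15.3, 0, 20.1 and 9.63 FPKM in the 4 populations, Tyrp1 at 4.80, 0, 41.9 and 6.78, and Mlana at 7.08, 0, 3.87 and 4.44. Both wild-type populations were above their labelled-knockout partners in Dct, Tyrp1 and Pmel, with 1 library each. In such a pool, fewer cells of a type and less RNA per cell cannot be told apart.

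Wells under 1000 genes held pigment RNA too. Dct reached 1701 FPKM in S7 with 850 genes and 1484 FPKM in S359 with fewer than 250 genes, both on wild-type plates. Tyrp1 reached 1671 FPKM in S293, also under 250 genes, and Mlana 88.9 FPKM in S81 with 884 genes. Well S91 held Tyr at 84.9 FPKM with fewer than 250 detected genes and none of the other 4. No well under 1000 genes held 2 or more of Dct, Tyrp1, Pmel and Mlana.

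Cd74 and Fcer1g were found in more kept cells than any pigment gene other than Tyr, whereas Apoe and Lyz2 lay in the range of Pmel and Dct. Cd74 was detected in 48 kept cells (15.9% of all kept cells, 95% interval 12% to 20.6%), Fcer1g in 34 (11.3%, 7.95% to 15.4%), Apoe in 23 (7.64%, 4.91% to 11.2%) and Lyz2 in 21 (6.98%, 4.37% to 10.5%). Without the 24 wells with few T cell genes the shares were 14.8%, 9.75%, 7.22% and 6.50% of the remaining cells. At least 1 of the 4 was found in 96 cells (31.9%), in 24 of 72, 18 of 77, 26 of 74 and 28 of 78 by plate. None of the 8 rarer pigment and myeloid transcripts was detected in 59.5% of kept cells.

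Cd74, the invariant chain, was detected in 9 of 72 and 4 of 77 CD8 cells and in 18 of 74 and 17 of 78 CD4 cells, wild type first. Its detected values ran from 18.9 through 176.7 to 10622 FPKM in wild-type CD8, from 1.54 through 427 to 10412 in CD8 labelled knockout, from 22.4 through 222.1 to 11172 in wild-type CD4 and from 13.8 through 224.1 to 6827 in CD4 labelled knockout. Each plate had at least 1 well far above its median. In CD8 labelled knockout it was S193 alone, with 92.4% of the Cd74 summed over that plate's kept cells. The difference, labelled knockout minus wild type, was -7.31 points in CD8 (-17.4 to 2.10) and -2.53 in CD4 (-15.9 to 10.8).

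Fcer1g, the Fc receptor chain, was detected in 11 of 72, 10 of 77, 9 of 74 and 4 of 78 cells. Its detected values ran from 335.6 through 866 to 4673 FPKM in wild-type CD8, from 190.5 through 735 to 1911 in CD8 labelled knockout and from 352.5 through 1780 to 10450 in wild-type CD4. The 4 wells of CD4 labelled knockout were at 2.42, 10.1, 3714 and 8116 FPKM. Fcer1g thus lay at 100 FPKM or more in 32 of its 34 wells. The difference was -2.29 points in CD8 (-13.9 to 9.07) and -7.03 in CD4 (-16.9 to 2.21), and in CD4 it was -10.7 points, past the limit, among cells with at least 2000 genes. How many of all genes passed the limit in those cells was not computed, so that value has no background beside it.

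Apoe was detected in 7 of 72, 4 of 77, 8 of 74 and 4 of 78 cells, from 6.17 through 56.8 to 551 FPKM in wild-type CD8 and from 42.7 through 107.3 to 206.5 FPKM in CD8 labelled knockout. In wild-type CD4 it ran from 1.20 through 760 to 38683 FPKM, and the 4 wells of CD4 labelled knockout were at 1.41, 105.8, 417 and 1500 FPKM. The CD4 plates thus held both the lowest and the highest values. The difference was -4.53 points in CD8 (-14.1 to 4.38) and -5.68 in CD4 (-15.3 to 3.32).

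Lyz2, the macrophage lysozyme, fell into separate low and high groups. Of its 21 wells, 11 were between 1.47 and 3.14 FPKM and 10 were between 243.3 and 43436 FPKM, with none between. The 11 low wells all stood at an estimated 1.23 to 1.24 reads, which is about 1 read each. Of the low wells 9 were on the CD4 plate labelled knockout, 1 on the CD8 plate labelled knockout and 1 on the wild-type CD4 plate. The high wells numbered 3, 1, 3 and 3 in the order of plates used above. Lyz1, its near copy, was detected in 10 of 10 high wells and 0 of 11 low wells, and Fcgr3, an Fc receptor of macrophages, in 5 of 10 and 0 of 11.

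The label comparison of Lyz2 turned on the low wells. By detection at 1 FPKM, Lyz2 was in 12 of 78 cells of the CD4 plate labelled knockout and in 4 of 74 of its wild-type partner, a difference of 9.98 points (0.0044 to 20.1), just under the limit of 10 points. At 10 FPKM or more the counts were 3 of 78 and 3 of 74, a difference of -0.21 points. At 1 FPKM the CD4 difference passed the limit in cells matched on detected genes (10.9 points) and in cells with at least 2000 genes (11.8 points). For neither set of cells was the share of all genes past the limit computed. In CD8 the difference was -1.57 points (-9.19 to 5.38) at 1 FPKM. The CD4 plate labelled knockout also held well S123, with Lyz2 at 26410 FPKM, 97.8% of the Lyz2 summed over that plate's kept cells. The wild-type CD4 plate held a well with even more Lyz2, S289 at 43436 FPKM (89.9% of its plate's sum), and had 1 low well. Whether reads passed between wells of a plate was not tested.

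**Figure D4:**
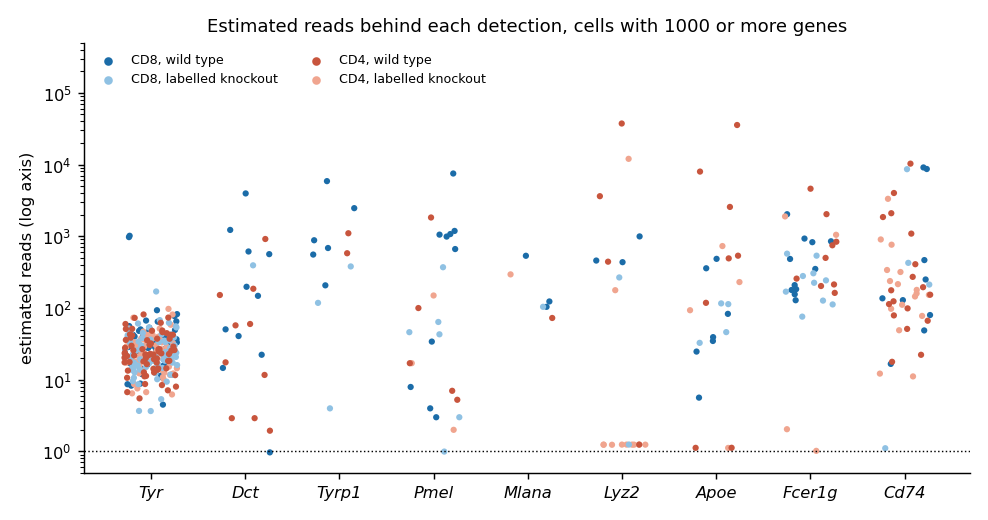
Estimated reads behind each detection (vertical axis, log scale) for the 9 genes in kept cells with an estimate, coloured by plate; the dotted line marks 1 read. Lyz2 falls into a row of 11 wells near 1 read, 9 of them on the CD4 plate labelled knockout, and a group of high wells, whereas Tyr lies around 25.2 reads.

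Wells with several myeloid transcripts differed in their T cell content. Of the 96 cells with any of the 4, 19 held 2 or more, 4 of 72, 2 of 77, 7 of 74 and 6 of 78 by plate. Independent spread within each plate would give 16.7 such wells, near the 19 found, but single pairs met more often than such spread gives. Fcer1g and Cd74 were found together in 13 wells, 38.2% of Fcer1g wells and 27.1% of Cd74 wells, where independent spread would give 4.96. Lyz2 and Fcer1g shared 7 wells against 1.82, and Lyz2 and Apoe 6 against 1.44. Every pair of the 4 genes lay above its product of shares, least so Apoe and Fcer1g with 4 against 2.77. Tyrobp, an adaptor of myeloid and NK cell receptors that was not among the 9 genes, was detected in 9 of the 19, and it was picked for this description after its values were seen. The 9 wells with Tyrobp held a median of 2 of 13 T cell genes, and Cd3e was at 0 in 7 of them. The 10 wells without Tyrobp held a median of 10 T cell genes, with Cd3e detected in 9. Of the 27 further myeloid genes other than Tyrobp, the 9 wells held a median of 12 and the 10 wells a median of 4.5. At 10 FPKM or more, 13 wells held several of the 4 transcripts, the 9 with Tyrobp and 4 without, so 6 of the 10 wells without Tyrobp were not counted at that level. Without wells of fewer than 6 T cell genes, 12 of the 19 are left.

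The 7 wells with Tyrobp and no Cd3e carried myeloid RNA at high level. Well S289 of the wild-type CD4 plate held Lyz2 at 43436, Apoe at 38683, Cd74 at 11172 and Fcer1g at 10450 FPKM, with 24 of 28 further myeloid genes and 2 of 13 T cell genes. It was the well with the most detected genes of its plate, 4964, and the only kept cell with 2 or more transcripts of each kind. Its pigment transcripts were Dct at 128.7, Mlana at 122.4 and Pmel at 71.6 FPKM, while Tyr was at 2.69 FPKM. Well S123 held 20 and S323 held 13 of the 28 myeloid genes. Wells S52 of the wild-type CD8 plate and S193 of the CD8 plate labelled knockout held Cd74 at 10622 and 10412 FPKM. The class II genes H2-Aa (23529 and 16232 FPKM) and H2-Ab1 (26761 and 25713 FPKM) were as high in them, with 0 and 1 of 13 T cell genes. The 1 in S193 was Cd8a at 505.5 FPKM, whereas Cd8a was at 0 in S52. In the CD4 plates, Cd4 was at 38.9 to 730 FPKM in all 5 of these wells, which are S123, S191, S289, S323 and S377.

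In the other wells with Tyrobp, T cell RNA stood beside myeloid RNA. Well S2 of the wild-type CD8 plate held 21 further myeloid genes, 7 of 7 MHC class II genes and 11 of 13 T cell genes, with Cd3e at 319.2 and Cd8a at 533 FPKM and 5034 detected genes. Well S332 of the wild-type CD4 plate held Apoe at 11739 FPKM, Fcer1g at 6246 and Cd74 at 5892, with 10 T cell genes and 21 myeloid genes. Its Cd3e was at 4.32 FPKM.

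**Figure D5:**
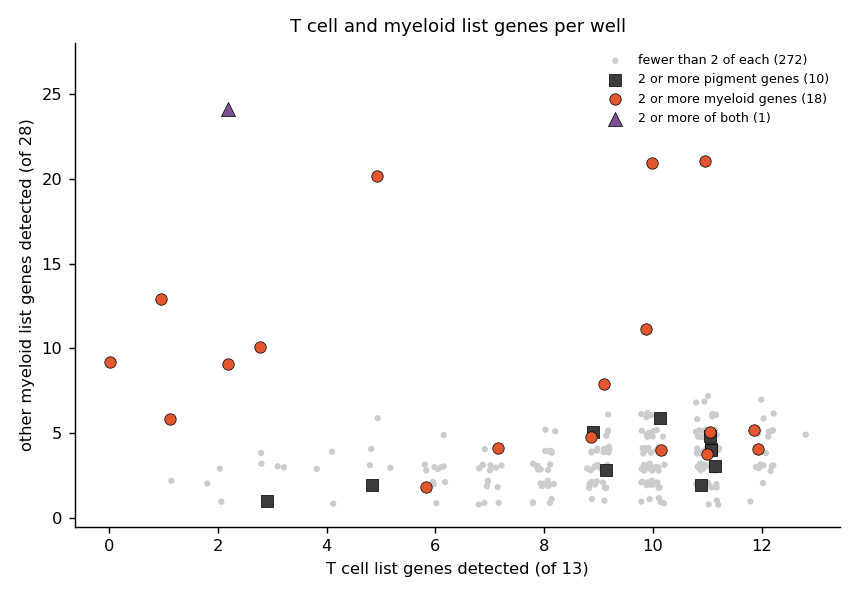
Number of 28 further myeloid list genes detected (vertical axis) against the number of 13 T cell list genes detected (horizontal axis) in each kept cell, with small random offsets; colours mark wells with 2 or more of Dct, Tyrp1, Pmel and Mlana, 2 or more of Lyz2, Apoe, Fcer1g and Cd74, or both. Wells with several pigment genes lie mostly at 9 to 11 T cell genes, with 3 of 11 at 2 to 5. Of the wells with several myeloid genes, 7 of 19 lie at 0 to 5 and the others higher. The well with both is counted in each group.

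Further myeloid genes differed in how well they marked these wells. Csf1r, the receptor that maintains macrophages, and Fcgr3 were each detected in 6 of 19 wells with several myeloid transcripts and in 0 wells with none of the 8. H2-Ab1 was detected in 10 of 19 and in 0 with none, and H2-Aa in 9 of 19 and in 2 with none (1.12%). Other genes of the list were broad in T cell wells. Ms4a6c was detected in 77.7% of all kept cells, Ctsb in 64.8%, Csf3r in 52.2% and Ctss in 51.2%, so the count of list genes has a background of a median of 3 of 28 in wells with none of the 8. The neutrophil genes S100a8 and S100a9 were detected in no kept cell. Of the B cell markers, Ms4a1 and Pax5 were detected in no kept cell, and no NK cell list gene was detected in the 19 wells. At least 1 of 7 further MHC class II genes was detected in 12 of 19 wells (median 3) and in 11.2% of wells with none of the 8. At least 1 of 8 stromal and endothelial genes was detected in 8 of 19 wells and in 20.7% of wells with none, and at least 1 of 4 erythroid and platelet genes in 4 of 19 and in 0.559%. All 10 housekeeping genes were detected in the median well of both kinds.

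The myeloid genes had different nearest genes. Lyz2 was most like Lyz1 (r = 0.90), Fcgr3 (0.71), Wfdc17 (0.68), Rassf4 (0.65) and Csf1r (0.65) over the kept cells. Apoe was most like Acvrl1 (0.59), Lrp1 (0.58), Ccl2 (0.57), Fcgr3 (0.55) and Csf1r (0.55). Fcer1g was most like Ly86 (0.61), Tyrobp (0.59), Plcg2 (0.56), Syk (0.56) and H2-Eb1 (0.54). Cd74 was most like Ctsh (0.63), H2-Eb1 (0.62), H2-Ab1 (0.62), H2-Aa (0.60) and Lilrb3 (0.58), and the H2 genes encode the class II chains that Cd74 accompanies. Fcgr3, Csf1r, Acvrl1, Ccl2 and Rassf4 were each detected in 6 cells, so a few wells set these values.

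Single wells also set the plate means of the myeloid genes. On the wild-type CD4 plate the mean of Lyz2 was 653 FPKM and 66.6 FPKM without well S289, and the mean of Apoe was 740 and 220 FPKM. On the CD4 plate labelled knockout the mean of Lyz2 was 346.1 FPKM and 7.57 FPKM without S123. In CD8 labelled knockout the mean of Cd74 was 146.3 FPKM and 11.3 FPKM without S193. The population libraries did not follow these means, since Lyz2 and Apoe were at 0 in the wild-type CD4 population. In the other populations Lyz2 was at 21.4, 47.1 and 12.9 FPKM and Apoe at 36.5, 113.8 and 29.5 FPKM (CD8 wild type, CD8 labelled knockout, CD4 labelled knockout). Fcer1g was at 213.5, 286.9, 27.1 and 246.01 FPKM and Cd74 at 356.7, 525, 130.4 and 282.9 FPKM in the 4 populations, with the wild-type CD4 population lowest in both.

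Some wells held pigment and myeloid transcripts together. A pigment gene other than Tyr and a myeloid gene were found together in 17 kept cells, which is 39.5% of the 43 cells with a pigment gene and 17.7% of the 96 cells with a myeloid gene. Over all kept cells 31.9% held a myeloid gene, so cells with a pigment gene did not have a lower share. If the kinds were spread independently within each plate, the shares would give 13.9 such cells. By plate these were 6, 3, 7 and 1 cells. Dct shared 6 wells with Fcer1g, 4 with Apoe, 2 with Cd74 and 1 with Lyz2. Tyrp1 shared none with Lyz2. Over the kept cells, r between pigment genes other than Tyr ran from 0.30 to 0.54, and r between myeloid genes from 0.21 (Apoe and Fcer1g) to 0.44 (Lyz2 and Apoe). Between a pigment gene other than Tyr and a myeloid gene it ran from -0.04 (Tyrp1 and Cd74) to 0.22 (Pmel and Apoe, and Mlana and Apoe). The upper end of the mixed pairs thus reached the lower end of the myeloid pairs, in each case with Apoe. Tyr had r values from -0.12 (Lyz2) to -0.02 (Apoe) with the myeloid genes.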

How the data were processed

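Single-cell RNA was measured by Smart-seq2 with 21 PCR cycles per the labels' protocols. The authors deposited FPKM values after TMM normalization, per the labels, made with Bowtie and RSEM on build mm10 per the submitters' processing notes. Tool versions were not given in the sources used here. Where reads fit more than 1 gene, RSEM splits them by estimate. Wells were grouped by title, since the treatment label speaks of CD8 cells for all plates. No columns held identical values. The members and the gene lists (9 lists, 101 of 107 genes found in the table) were chosen with earlier results of these data known.

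Detection was at least 1 FPKM, cells needed 1000 detected genes, and levels used a pseudocount of 1. Shares carry Clopper-Pearson and differences Newcombe 95% intervals (Python 3.11.15, scipy 1.17.1), and a count of 0 a limit of 3 cells. These cover counting error only. A difference of 10 points was the limit for a call. The file holds no read counts, so depth is known only through the FPKM worth 1 read, fitted from low values with GENCODE M21 lengths (91.9% of symbols). Among 201987 low values (under 10 reads by this estimate), 49.5% fell within 0.1 of a whole number and 20% would if even, too few for a count test. One read in a 2 kb gene was worth a median of 0.964 FPKM (0.466 to 3.02). On simulated data the fitted value was within 10% of the truth in 100% of 100 wells. The simulation made and fitted values with the same lengths, so it could not show errors from wrong transcript lengths. Its 1-read values also stopped below the highest of the real wells. Coordinates are GRCm38, the assembly behind mm10. Named genes were the members, fixed-list genes where a count is given, and the 5 genes most like each member by Pearson r among genes in at least 5 kept cells. Other detection limits, cell filters, pseudocounts, matching and rank correlation were tried. Protein sequences were not used here.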

Additional observations from a re-analysis of the deposited data

Results flagged for a closer look

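The label difference in the share of cells with Lyz2 had opposite signs in the 2 cell types: -1.57 points in CD8 and 9.98 points in CD4, apart by 11.5 points. The difference between the cell types was not tested. With detection at 10 FPKM it was -2.87 points in CD8 and -0.21 points in CD4, the same sign, since 9 of the 12 Lyz2 wells on the CD4 plate labelled knockout stood at about 1 estimated read.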

How the results depend on the processing

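Only the 2 Dct differences were called, and neither turned direction under any alternative run. Dct was in 0 labelled-knockout cells in CD4 and 1 in CD8 in each run, which left little or no room for a turn. Over all results, 26 recomputed values moved past their interval, spread or factor of 1.5. The share of cells with Tyr was 35.5% at 10 FPKM, 1.66% at 50 FPKM, 88.6% over all single-cell wells and 100% of cells with at least 2000 detected genes, beside 99%. The Dct difference fell under 10 points at 50 FPKM (-7.03 in CD8, -5.41 in CD4), in CD4 at 10 FPKM (-8.11) and in CD8 among cells with at least 2000 genes (-8.53). In CD4, differences not past 10 points before passed it for Tyr at 10 FPKM (14.1, with a turn of sign), for Lyz2 among matched cells (10.9) and cells with at least 2000 genes (11.8), and for Fcer1g in the latter (-10.7). The share of all genes past 10 points was not computed for matched cells or for cells with at least 2000 genes. Wells with 2 or more myeloid genes numbered 12 without cells of fewer than 6 T cell list genes, an alternative chosen after seeing the data. Wells with both a pigment and a myeloid gene numbered 9 at 50 FPKM. Leaving out 1 plate at a time gave 4 to 11 wells with 2 or more pigment genes (4 without wild-type CD8), 12 to 17 with 2 or more myeloid genes (12 without wild-type CD4) and 10 to 16 with both (10 without wild-type CD4, 11 without wild-type CD8). With a pseudocount of 10 the mean Tyr level was 4.18 on the CD8 plate labelled knockout, 4.18 on the wild-type CD4 plate and 4.25 on the CD4 plate labelled knockout, a change of scale. Of the 45 genes named as most like a member, 28 were shared with a choice by Spearman rho and 16 when genes had to be detected in 15 cells, which removes genes found in few wells by construction. For Tyr, 1 of 5 was shared by Spearman rho. No paired analysis was possible because each genotype and cell type has 1 plate and the well numbers differ between groups. Without read counts, depth limits the low values: detections near 1 FPKM can rest on 1 read.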
